A study of Rattus norvegicus with 12 samples.

Results

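Potassium channel genes were followed in the hippocampus of young rats across 4 groups that differed in treatment and housing. The members are all probe sets whose single gene symbol in the array annotation starts with Kcn, with 1 gene of that prefix not analysed here. They were 107 probe sets of 72 genes, out of 12789 probe sets of 10412 genes that carry 1 symbol and 15923 probe sets on the array. By symbol they fall into 30 genes of voltage-gated (Kv) channels, 14 of inward rectifiers (Kir), 11 of tandem-pore leak channels (K2P), 5 of calcium-activated and related large-conductance channels, and 12 of auxiliary subunits.

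Rats received PBS (phosphate-buffered saline, the vehicle) or KA at postnatal day 20. The labels give KA only as an abbreviation, read here as kainic acid, which induces seizures through glutamate receptors, since the series concerns seizure injury. PBS_isolated and KA_isolated rats lived in individual cages for 10 days. PBS_enriched and KA_enriched rats lived in an enriched environment in large cages of 8, and their time there is not given in the labels. Each group had 3 samples, each pooled from 3 to 4 rats and read on 1 single-colour array, so n counts pools and p-values measure the spread between pools. Strain, litter and cage are not given, so cage effects and enrichment cannot be told apart. Without a group in standard cages, enrichment and relief from isolation cannot be told apart either.

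Potassium channels set the resting potential of neurons and end each action potential. Kv channels open when the membrane depolarises, Kir channels pass current best near rest, K2P channels carry the background leak, and calcium-activated channels follow calcium entry. Auxiliary subunits bind these pores and alter their gating or transport. In the hippocampus loss of function in several of these genes is linked to epilepsy, and seizures are known to alter the expression or modification of some of them.

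The deposited values are linear probe set intensities, called signals below, already brought to a common mean on every array. Array medians lay between 70.1 and 74.1, and correlations between arrays between 0.981 and 0.991. KA_enriched replicate 3 had the lowest mean correlation with the others (0.983) and a beta-actin 3 prime to 5 prime log2 ratio of 0.86, against 0.36 to 0.64 in the other samples. It held the highest or lowest value of 31.8% of tested members, beside 33.3% of all tested probe sets. The 7 hippocampal neuron markers on the array were all tested, the dimmest at a mean signal of 205. The 9 microglial markers summed to 1497 to 1623 after PBS and 2068 to 2523 after KA under isolation, and 1533 to 2280 and 1346 to 2330 under enrichment, and no signal in the table was 0. The sums of 2280 and 2330 were those of PBS_enriched replicate 2 and KA_enriched replicate 3. In bulk tissue fewer cells of a type and less RNA per cell cannot be told apart.

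Differences were tested with limma on log2(signal + 17) over the 60% of probe sets with the highest mean, 9520 in all. This left 44 probe sets of 31 potassium channel genes, namely 15 Kv, 4 Kir, 4 K2P, 2 calcium-activated and related, and 6 auxiliary genes. The other 63 probe sets lay below that filter, and 41 genes had no other probe set. A log2 difference is on this scale throughout and understates the change of dim probe sets, and signals are not compared between probe sets.

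No potassium channel probe set passed an adjusted p (Benjamini-Hochberg) of 0.05 in any of 7 comparisons. For KA against PBS the count was 0 of 44 in isolated rats (0.0105% of all tested probe sets were called), 0 of 44 in enriched rats (0% called) and 0 of 44 for the mean of both housings (0.0105% called). For enriched against isolated housing it was 0 of 44 after PBS (0.0105% called), 0 of 44 after KA (0% called) and 0 of 44 for the mean of both treatments (0.021% called). For the interaction, which sets the KA effect of enriched rats against that of isolated rats, it was also 0 of 44 (0% called), and likewise for a test of any difference over the 4 groups (0.0105% called). At an unadjusted p under 0.05 the counts were 3, 2, 1, 3, 3, 3 and 1 of 44 in the same order of comparisons, that is 6.82%, 4.55%, 2.27%, 6.82%, 6.82%, 6.82% and 2.27%. Over all tested probe sets those shares were 4.31%, 4.98%, 4.31%, 4.21%, 7.02%, 5.64% and 4.97%, so the members lay near the background throughout. The values below are therefore given as values that did not pass.

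The intervals bound what these arrays leave possible. For the 6 comparisons other than the interaction, the 95% interval of all 44 members lay within a log2 of 1 in either direction. This limit is 2-fold for the signal with its added constant. It does not bound the signal itself to 2-fold, since this scale understates the change of dim probe sets. The interval lay within a log2 of 0.5 (1.41-fold on that scale) for 38 members for KA in isolated rats. It did so for 38 for KA in enriched rats and 44 for both housings averaged. For housing the counts were 37 after PBS, 39 after KA and 44 for both treatments averaged. The interaction was less precise, with 43 members within a log2 of 1 and 20 within a log2 of 0.5. The widest interaction interval was that of a Kcnab2 probe set, which reached a log2 of -1.22.

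**Figure D1:**
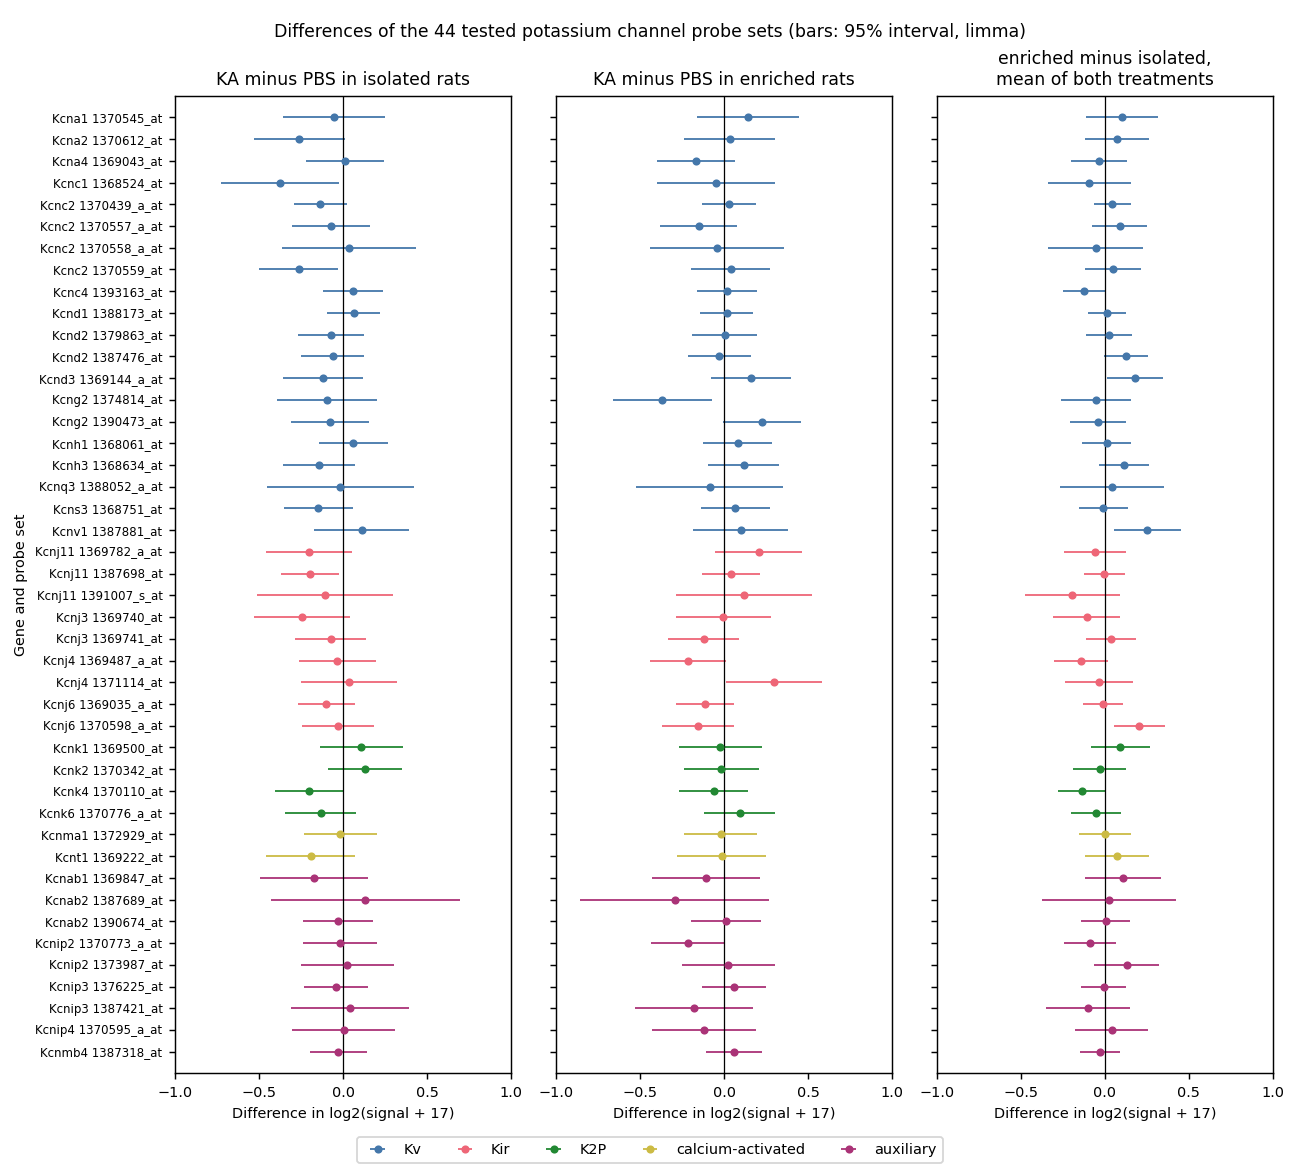
Log2 differences of the 44 tested potassium channel probe sets on log2(signal + 17), with 95% limma intervals, for KA minus PBS in isolated rats, KA minus PBS in enriched rats, and enriched minus isolated as the mean of both treatments. Colours mark the channel class, and the points lie between -0.37 and 0.30 in the 3 panels.

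Among Kv genes the Kv1 family, which sits on axons and limits spike initiation and transmitter release, had 3 tested members. Kcna1 signal ranged from 131 to 229 over the 12 samples, Kcna2 from 48.9 to 80.4 and Kcna4 from 72.5 to 99.5. Kcna1 was 156 ± 2.83 (SD, n = 3) in PBS_isolated and 149 ± 10.9 in KA_isolated, and the enriched groups were 158 ± 26.0 after PBS and 177 ± 45.0 after KA. Its highest value, 229, was KA_enriched replicate 3, and the other 11 samples lay at or below 183. Kcna2 was 70.6 ± 5.39 in PBS_isolated and 56.5 ± 10.7 in KA_isolated, where the ranges overlapped. None of the 3 genes was among those of smallest p in any comparison.

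The Kv3 genes, whose fast channels let interneurons such as the parvalbumin class fire at high rates, included members with the lowest differences after KA in isolated rats. Kcnc1 signal was 342, 277 and 301 in PBS_isolated and 283, 168 and 260.0 in KA_isolated. It was 242, 230.0 and 291 in PBS_enriched and 280.2, 246 and 212 in KA_enriched. KA_isolated replicate 2 was the lowest of the 12 samples, and the groups overlapped. The difference KA minus PBS in isolated rats was -0.37 (SE 0.16, 95% interval -0.73 to -0.024) and did not pass (limma, adjusted p = 0.999). Without KA_isolated replicate 2 it was -0.16.

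Kcnc2 had 4 tested probe sets. That of smallest p, 1370559_at, read 115, 93.3 and 96.4 in PBS_isolated and 79.5, 88.7 and 76.3 in KA_isolated, with every KA_isolated sample below every PBS_isolated sample. In PBS_enriched it read 105, 82.6 and 92.9 and in KA_enriched 114, 89.4 and 87.1, which overlapped. The difference KA minus PBS in isolated rats was -0.27 (SE 0.11, 95% interval -0.50 to -0.029) and did not pass (limma, adjusted p = 0.999). Another Kcnc2 probe set, 1370439_a_at, also separated these groups, with 280.1, 272 and 275 in PBS_isolated against 252, 241 and 255 in KA_isolated, and it was 290.1, 261 and 255 in PBS_enriched and 295, 261 and 267 in KA_enriched. The remaining Kcnc2 probe sets, 1370557_a_at and 1370558_a_at, overlapped between PBS_isolated and KA_isolated. The 5 interneuron markers, all tested, summed to 2234 to 2350 after PBS and 2149 to 2203 after KA under isolation, and 2124 to 2157 and 2130 to 2175 under enrichment. Their sums did not overlap between PBS_isolated and KA_isolated, and their mean centred log2 values, -0.00076 to 0.081 and -0.027 to 0.016, did. Their part in the Kcnc1 and Kcnc2 values was not tested. The remaining Kv3 gene, Kcnc4, was 231 to 260.0 (median 245) in the 6 isolated samples and 206 to 246 (median 220.2) in the 6 enriched ones, a difference of -0.12 (SE 0.058, 95% interval -0.25 to 0.0047) over both treatments (limma, adjusted p = 0.875).

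The windows upstream of Kcnc1 and Kcnc2 are shown because both Kv genes of smallest p for KA in isolated rats belong to this family, and they were chosen after the values were seen. Each is the 250 bases before the gene's start in RefSeq on GRCr8, 5′ to 3′ on the gene's strand, with GC boxes (GGGCGG on either strand, a binding motif of Sp1 and related factors) in capitals. Kcnc1 (chr1:106038997-106039246, plus strand, 74.4% G or C) holds 3 GC boxes and Kcnc2 (chr7:49587364-49587613, plus strand, 56% G or C) none.
Kcnc1: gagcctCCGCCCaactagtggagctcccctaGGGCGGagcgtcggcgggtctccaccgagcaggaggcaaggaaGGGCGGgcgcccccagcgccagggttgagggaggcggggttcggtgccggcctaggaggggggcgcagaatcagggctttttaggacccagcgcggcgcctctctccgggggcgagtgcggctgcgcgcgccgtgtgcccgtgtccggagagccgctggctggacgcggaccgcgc
Kcnc2: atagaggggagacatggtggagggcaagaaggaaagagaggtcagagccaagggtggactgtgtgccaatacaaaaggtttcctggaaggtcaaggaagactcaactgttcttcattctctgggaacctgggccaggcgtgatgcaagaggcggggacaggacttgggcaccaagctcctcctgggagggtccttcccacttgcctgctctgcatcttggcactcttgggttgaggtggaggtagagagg
Such windows were found for 49 of the 72 genes and 21 of the 31 tested genes. A GC box lay in 14 of the 21 windows (66.7%), beside 40.3% of the windows of 18999 protein-coding genes. The 21 passed the signal filter, and the protein-coding genes were not filtered by signal. Over all 49 windows, without that filter, a GC box lay in 27 (55.1%). The median share of G or C was 65.2% in the 21 windows and 54.8% in those of protein-coding genes, and the part of base composition in the share of GC boxes was not tested. The cAMP response element core TGACGT, the E-box CACGTG and the TATA box TATAAA, each sought on both strands, were in 0 of the 21 windows, beside 8.15%, 6.38% and 12.3% of protein-coding windows. In the 49 windows they were in 1 (2.04%), 1 (2.04%) and 2 (4.08%). The Egr motif GCGGGGGCG was in 1 of the 21 windows (4.76%), that of Kcnt1, and in 2 of the 49 (4.08%), beside 3.12%. The GC box and the Egr motif can overlap, and a match is a description of letters only.

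The Kv4 genes carry the dendritic A-type current that damps back-propagating spikes. Kcnd2, the main hippocampal Kv4 gene, ranged from 341 to 421 on 1379863_at and from 271 to 367 on 1387476_at, with group means of 384 ± 33.2, 364 ± 26.3, 379.9 ± 25.4 and 381 ± 31.7 (SD, n = 3) on the first in the order PBS_isolated, KA_isolated, PBS_enriched and KA_enriched. Kcnd3 read 128, 128 and 126 in PBS_isolated and 131, 133 and 131 in PBS_enriched, 2 tight groups that did not overlap. It read 126, 127 and 98.0 in KA_isolated and 149.6, 125 and 177 in KA_enriched, which did overlap. Enriched minus isolated after KA was 0.32 (SE 0.11, 95% interval 0.085 to 0.56), the smallest p of any member in that comparison, and did not pass (limma, adjusted p = 0.630). That value was 0.21 without KA_enriched replicate 3 and 0.22 without KA_isolated replicate 3. Over both treatments the difference was 0.18 (SE 0.078, 95% interval 0.013 to 0.35) (limma, adjusted p = 0.852). Kcnd1 lay in a narrow range, 64.5 to 76.3, in all samples, and its KA_isolated samples were all above its PBS_isolated samples, by 0.062 on the log2 scale.

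The upstream window of Kcnd3 (chr2:195626066-195626315, GRCr8, plus strand, 79.6% G or C) holds 1 GC box, on the opposite strand.
Kcnd3: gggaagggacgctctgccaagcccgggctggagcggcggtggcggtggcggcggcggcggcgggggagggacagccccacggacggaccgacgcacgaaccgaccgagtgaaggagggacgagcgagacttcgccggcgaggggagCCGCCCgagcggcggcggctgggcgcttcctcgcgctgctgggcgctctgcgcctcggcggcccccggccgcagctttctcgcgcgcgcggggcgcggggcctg

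Silent Kv subunits do not form channels alone but join other Kv pores and alter their gating. Kcnv1, a silent subunit of the brain, read 163, 163 and 153 in PBS_isolated and 168, 137 and 227 in KA_isolated. It read 200.1, 196 and 187 in PBS_enriched and 188, 216 and 225 in KA_enriched. All 6 enriched samples lay above 5 of the 6 isolated samples, and KA_isolated replicate 3 lay above every enriched sample. Enriched minus isolated over both treatments was 0.25 (SE 0.093, 95% interval 0.054 to 0.45), and it did not pass (limma, adjusted p = 0.832). It was 0.26 after PBS (95% interval -0.024 to 0.54) and 0.25 after KA (95% interval -0.035 to 0.53). The value after KA was 0.093 without KA_isolated replicate 2 and 0.43 without KA_isolated replicate 3.

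Kcng2, another silent subunit, had 2 tested probe sets that went opposite ways after KA in enriched rats. Probe set 1374814_at read 257, 265 and 245 in PBS_enriched and 186, 172 and 228 in KA_enriched, with no overlap. Probe set 1390473_at read 85.0, 65.1 and 90.9 and 95.7, 94.2 and 98.8 in the same groups, again with no overlap but in the other direction. The differences were -0.37 (SE 0.14, 95% interval -0.66 to -0.073) and 0.23 (SE 0.11, 95% interval -0.0035 to 0.46), and neither passed (limma, adjusted p = 0.932 for both). In isolated rats 1374814_at read 254, 267 and 205 after PBS and 281, 207 and 193 after KA, and 1390473_at read 83.2, 90.0 and 109 and 82.5, 90.0 and 90.9, with overlap in both. No direction is given for the gene. Kcns3, also silent, was 88.4, 78.6 and 83.8 in PBS_isolated and 74.8, 72.7 and 73.7 in KA_isolated without overlap, and 79.5, 67.4 and 80.9 and 94.9, 69.9 and 77.1 in the enriched groups with overlap.

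Of the ether-a-go-go genes, Kcnh3, a forebrain channel whose loss raises excitability in mice, read 227, 265 and 248 in KA_isolated and 266, 288 and 334 in KA_enriched. The lowest KA_enriched value was just above the highest KA_isolated one. PBS_isolated and PBS_enriched were 276, 295 and 251 and 278, 248 and 288, which overlapped. Enriched minus isolated after KA was 0.24 (SE 0.098, 95% interval 0.032 to 0.46) and did not pass (limma, adjusted p = 0.663), and it was 0.16 without KA_enriched replicate 3. Kcnh1 ranged from 104 to 135, with KA minus PBS of 0.071 over both housings (95% interval -0.074 to 0.22). Kcnq3, a subunit of the M-current channels that hold back repetitive firing, ranged from 54.8 to 108 with no separation of groups.

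**Figure D2:**
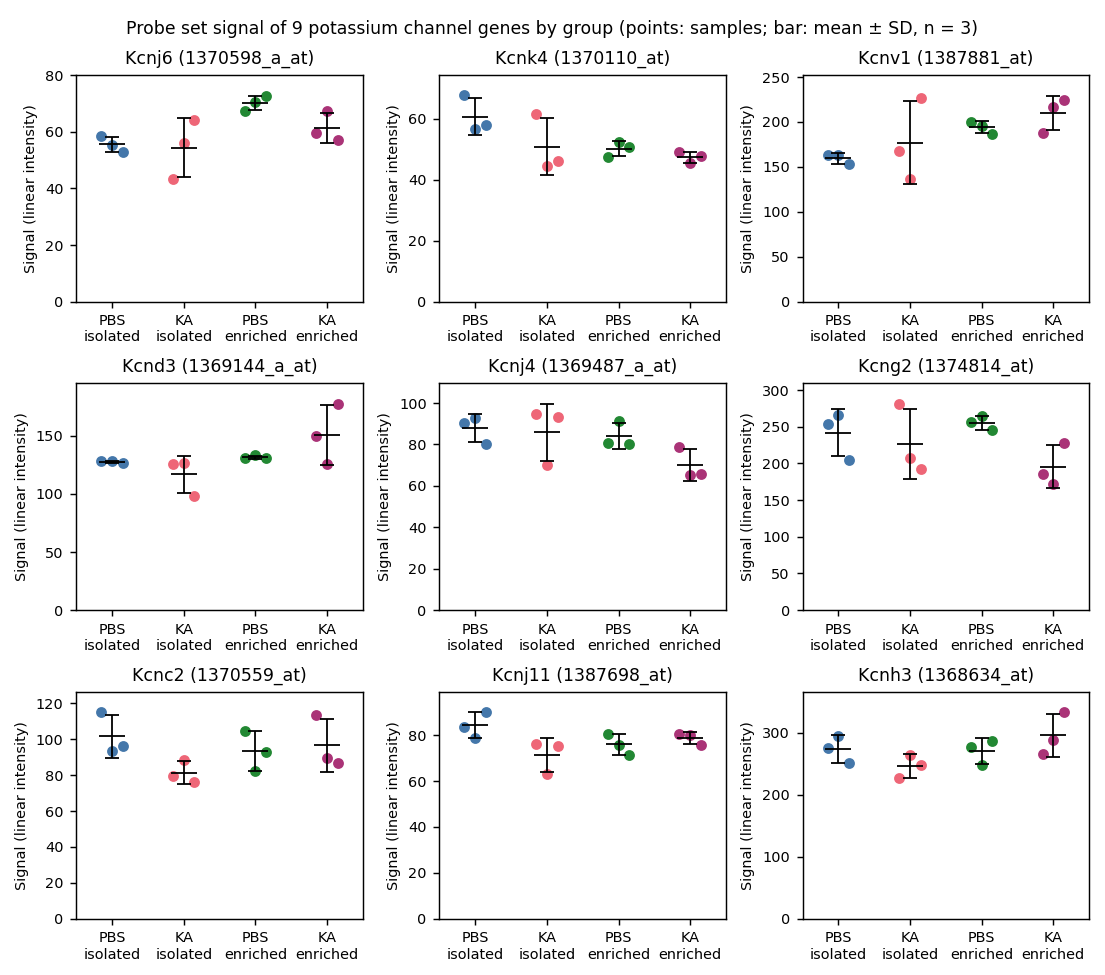
Signal (linear intensity, axis from 0) of 9 probe sets of potassium channel genes in each pool, by group; points are samples, and bars give the mean ± SD of 3 pools. The genes are the 9 of smallest F test p. Every KA_isolated point of Kcnc2 1370559_at lies below the PBS_isolated points, and the points of Kcnd3 and Kcnv1 lie farther apart in both KA groups than in both PBS groups.

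Of the Kir genes, Kcnj3 and Kcnj6 encode the G-protein-gated channels that carry slow inhibition by GABA-B, adenosine and serotonin receptors. Kcnj6 probe set 1370598_a_at read 58.5, 55.2 and 53.0 in PBS_isolated and 67.4, 70.5 and 72.6 in PBS_enriched, with no overlap. It read 43.2, 55.9 and 64.1 in KA_isolated and 59.6, 67.3 and 57.1 in KA_enriched, which overlapped. It was the only member with an unadjusted p under 0.05 in the F test of limma over the 4 groups (limma, adjusted p = 0.953), where 4.94% of all tested probe sets had one. Enriched minus isolated was 0.27 (SE 0.099, 95% interval 0.051 to 0.48) after PBS (limma, adjusted p = 0.998) and 0.20 (SE 0.070, 95% interval 0.052 to 0.36) over both treatments (limma, adjusted p = 0.832). The other Kcnj6 probe set, 1369035_a_at, read 219.5, 234 and 244 in PBS_isolated and 225, 218 and 253 in PBS_enriched, which overlapped. Its KA_enriched samples, 215, 214 and 209, lay below all PBS_enriched samples, as did those of 1370598_a_at, and KA minus PBS over both housings was -0.11 (SE 0.056, 95% interval -0.23 to 0.014) (limma, adjusted p = 0.996).

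The upstream window of Kcnj6 (chr11:47778349-47778598, GRCr8, minus strand, 69.2% G or C) holds 1 GC box and is shown as that of the gene with the smallest p over the 4 groups.
Kcnj6: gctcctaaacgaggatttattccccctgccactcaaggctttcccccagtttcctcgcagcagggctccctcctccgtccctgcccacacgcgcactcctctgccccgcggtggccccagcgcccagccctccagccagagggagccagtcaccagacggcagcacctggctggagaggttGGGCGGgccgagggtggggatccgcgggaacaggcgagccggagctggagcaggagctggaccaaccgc

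Kcnj3 ranged from 107 to 145 on 1369741_at and from 47.1 to 88.8 on 1369740_at, and groups overlapped on both in every comparison of 3 against 3. Kcnj11 encodes the pore of the ATP-sensitive channel, which couples firing to energy supply. Its probe set 1387698_at read 83.8, 79.0 and 90.4 in PBS_isolated and 76.1, 63.0 and 75.4 in KA_isolated, with no overlap. The enriched groups were 80.7, 75.8 and 71.6 after PBS and 80.4, 80.2 and 75.9 after KA, with overlap. KA minus PBS was -0.20 (SE 0.080, 95% interval -0.37 to -0.025) in isolated rats, and it was -0.13 without KA_isolated replicate 2. The interaction was 0.24 (SE 0.11, 95% interval -0.0039 to 0.49) on this probe set and 0.41 (SE 0.17, 95% interval 0.045 to 0.78) on 1369782_a_at, the smallest p of the members in that comparison, and neither passed (limma, adjusted p = 0.951 for both). On 1369782_a_at the samples read 82.4, 69.8 and 101 in PBS_isolated and 66.1, 66.3 and 79.1 in KA_isolated, and 59.2, 68.6 and 73.0 in PBS_enriched and 81.2, 90.4 and 68.5 in KA_enriched, with overlap in both housings. The third Kcnj11 probe set, 1391007_s_at, ranged from 62.1 to 129 with no separation.

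Kcnj4, a strong inward rectifier of forebrain neurons, repeated the pattern of opposed probe sets. In PBS_enriched and KA_enriched probe set 1369487_a_at read 80.5, 91.5 and 80.2 and 78.7, 65.5 and 66.0, all lower after KA. Probe set 1371114_at read 107, 140.1 and 125 and 155, 146 and 167, all higher after KA. The differences were -0.22 (SE 0.11, 95% interval -0.44 to 0.010) and 0.30 (SE 0.13, 95% interval 0.014 to 0.58), neither passed, and no direction is given for the gene (limma, adjusted p = 0.932 for both).

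The K2P genes make the leak that sets the resting potential. Kcnk4, a mechanosensitive leak channel, read 67.8, 56.6 and 57.9 in PBS_isolated and 61.6, 44.6 and 46.3 in KA_isolated. It read 47.7, 52.3 and 50.8 in PBS_enriched and 49.0, 45.5 and 47.9 in KA_enriched. All PBS_enriched samples lay below all PBS_isolated samples, and the other comparisons of 3 against 3 overlapped. Enriched minus isolated was -0.21 (SE 0.095, 95% interval -0.41 to -0.0017) after PBS (limma, adjusted p = 0.998) and -0.14 over both treatments (95% interval -0.28 to 0.0091). With a pseudocount of 64 the difference after PBS was -0.13.

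Kcnk2, a leak channel opened by stretch and fatty acids, ranged from 86.8 to 121 and gave 0.13 for KA minus PBS in isolated rats (95% interval -0.094 to 0.35). Kcnk1 ranged from 78.3 to 118, with 0.11 in the same comparison (95% interval -0.14 to 0.36). These were the 2 higher members of smallest p there, and the groups overlapped for both. Kcnk6 ranged from 44.4 to 66.5 and overlapped in every comparison.

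Of the calcium-activated class only Kcnma1, the pore of the large-conductance BK channel, and Kcnt1, a sodium-activated channel of the same Slo family, were tested. Kcnma1, with 7 log2 differences between -0.020 and 0.0037, showed groups that overlapped in every comparison. Its group means were 118 ± 7.13 after PBS and 116 ± 6.51 after KA under isolation, and 118 ± 12.2 and 117 ± 17.6 under enrichment (SD, n = 3). Kcnt1 read 69.6, 66.9 and 72.8 in PBS_isolated and 51.4, 60.9 and 64.8 in KA_isolated, with no overlap, and 83.3, 53.6 and 71.8 and 76.7, 57.9 and 70.0 in PBS_enriched and KA_enriched. The small-conductance genes Kcnn1 and Kcnn3, which contribute to the medium afterhyperpolarisation, were below the filter, and Kcnn2 is not analysed here.

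The auxiliary subunits had 9 tested probe sets. Kcnmb4, the neuronal beta subunit of the BK channel, kept to 387 to 456, with group means of 427 ± 17.3 after PBS and 419 ± 30.6 after KA under isolation, and 405 ± 14.6 and 423 ± 28.4 under enrichment (SD, n = 3). Kcnab1 and Kcnab2 encode beta subunits of Kv1 channels. Kcnab1 read 280.2, 249 and 268 in PBS_isolated and 226, 263 and 213 in KA_isolated, and 302, 258 and 282 and 323, 282 and 188 in the enriched groups, where KA_enriched replicate 3 was the lowest of the 12 samples and replicate 1 the highest. Kcnab2 ranged from 620.5 to 778 on 1390674_at and from 62.1 to 149 on 1387689_at.

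Kcnip2, Kcnip3 and Kcnip4 encode calcium-binding partners of Kv4 channels. Kcnip2 probe set 1370773_a_at read 169, 169 and 172 in KA_isolated and 154, 156 and 133 in KA_enriched, with no overlap, and 171, 169 and 177 and 171, 147 and 207 in PBS_isolated and PBS_enriched, with overlap. Enriched minus isolated after KA was -0.19 (SE 0.10, 95% interval -0.41 to 0.030) and did not pass (limma, adjusted p = 0.741), with -0.12 without KA_enriched replicate 3. The other Kcnip2 probe set, 1373987_at, ranged from 554 to 807 and overlapped in every comparison. Kcnip3 ranged from 262 to 326 on 1376225_at and from 27.1 to 65.5 on 1387421_at, and Kcnip4 from 81.7 to 128.

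No tested member separated the groups when samples were pooled over treatments or over housings. The 6 enriched samples overlapped the 6 isolated samples for all 44 (0 of 44, beside 0.305% of all tested probe sets), and the 6 KA samples overlapped the 6 PBS samples for all 44 (beside 0.105%). With 3 against 3, the groups did not overlap for 6 members for KA in isolated rats (13.6%, beside 10.8% of all tested probe sets) and 6 for KA in enriched rats (13.6%, beside 9.62%). For housing they did not overlap for 4 members after PBS (9.09%, beside 11.6%) and 4 after KA (9.09%, beside 10.8%). The members' shares were close to the background in each.

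For KA minus PBS in isolated rats 13 of the 44 members lay above 0 (29.5%, beside 47.7% of all tested probe sets) and 31 below. The count above 0 was 8 without PBS_isolated replicate 2 (18.2%, beside 48.0%) and 17 without PBS_isolated replicate 3 (38.6%, beside 48.8%). Over all 107 members, with no filter, it was 43 (40.2%, beside 47.1%). In enriched rats 22 of 44 lay above 0 for KA minus PBS (50%, beside 48.7%). After KA 30 of 44 were higher in enriched than isolated rats (68.2%, beside 51.1%). The count was 25 of 44 (56.8%, beside 44.5%) with equal array medians and 22 of 44 (50%, beside 51.2%) without KA_enriched replicate 1. The KA effect in isolated rats and the housing effect after KA share the KA_isolated samples. In the other comparisons the counts above 0 were 15 for KA over both housings (34.1%, beside 47.9%), 21 for housing after PBS (47.7%, beside 51%), 23 for housing over both treatments (52.3%, beside 51%) and 25 for the interaction (56.8%, beside 49.8%). The 7 hippocampal neuron markers summed to 7174 to 7518 after PBS and 6677 to 7506 after KA under isolation, and 7007 to 7412 and 6437 to 7648 under enrichment. Their mean log2(signal + 17), centred on each gene's mean over the 12 samples, was 0.0073 to 0.089 in PBS_isolated and -0.081 to -0.032 in KA_isolated, so that every KA_isolated sample was lower on this score while the sums overlapped. In the enriched groups the score overlapped, at -0.0056 to 0.053 after PBS and -0.053 to 0.075 after KA. The neuron markers did not move together for KA minus PBS in isolated rats. Camk2a (-0.39), Wfs1 (-0.32) and Neurod2 (-0.24) were lower. Calb1 (0.13), Slc17a7 (0.086), Prox1 (0.016) and Nrgn (0.0097) were not, and none of these differences passed. The 6 astrocyte markers summed to 6928 to 7351 in PBS_isolated and 7758 to 8235 in KA_isolated, with no overlap, while their scores, -0.083 to 0.032 and 0.021 to 0.10, overlapped. Between these groups Gfap (0.32), Aqp4 (0.20), Gja1 (0.14) and Slc1a3 (0.056) were higher after KA. Aldh1l1 (-0.093) and Slc1a2 (-0.054) were lower, and none of these differences passed. In the enriched groups the astrocyte sums were 6824 to 7603 after PBS and 6799 to 7956 after KA. The microglial markers were higher in all KA_isolated samples than in all PBS_isolated ones, in sum and in score. The 3 tested choroid plexus markers of 6 summed to 227 to 2902 in PBS_isolated, highest in replicate 1. Over the other groups they summed to 223 to 851. Scores of the 3 tested thalamus and striatum markers of 8 were -0.18 to 0.017 in PBS_isolated and 0.023 to 0.10 in PBS_enriched. These scores did not overlap, and the sums, 255 to 314 and 308 to 332, did. The part of the neuron, astrocyte, microglial, choroid plexus, thalamus and striatum markers in the counts and values of members was not tested.

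By class, with 1 probe set a gene, median log2 differences were small, the largest 0.11 in size. For KA minus PBS in isolated rats 10 of 15 Kv genes lay at lower values and 33.3% higher, beside 47.7% higher of all tested probe sets. The Kv median was -0.073, beside -0.0053 for all tested probe sets. That Kv median was -0.030 without KA_isolated replicate 3 and -0.091 without PBS_isolated replicate 2. In enriched rats 11 of 15 Kv genes lay at higher values for KA minus PBS (73.3%, beside 48.7%). Their median was 0.028, beside -0.0033, and it was -0.021 without KA_enriched replicate 1. After KA 11 of 15 Kv genes were higher in enriched rats (73.3%, beside 51.1%). Their median was 0.071, beside 0.0030, and it was 0.14 without KA_isolated replicate 3 and 0.031 without KA_enriched replicate 1. The Kir median for KA in isolated rats was -0.087 and became 0.0038 without KA_isolated replicate 3. Of the 35 medians of 5 classes in 7 comparisons, 23 changed sign when some sample was left out.

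**Figure D3:**
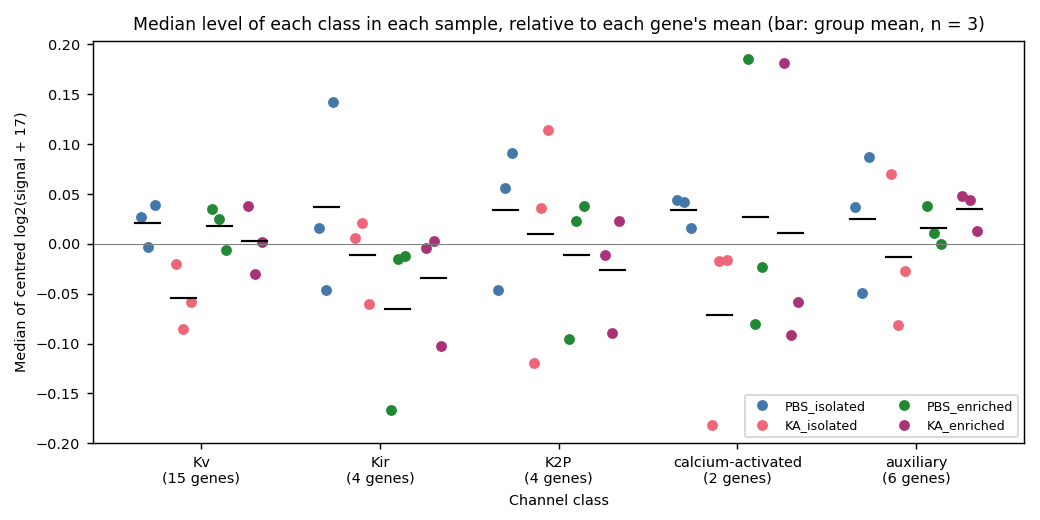
Median over the tested genes of each class of log2(signal + 17), centred on each gene's mean over the 12 samples, in each pool; bars are group means of 3 pools. The KA_isolated samples of the Kv class, at -0.085 to -0.020, lie below its PBS_isolated samples, at -0.0028 to 0.039. Those of the calcium-activated class (2 genes), at -0.18 to -0.016, also lie below its PBS_isolated samples, at 0.016 to 0.044. These 2 groups overlap in the Kir, K2P and auxiliary classes.

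Probe sets of the same gene were compared within the array. Of the 31 tested genes 10 had several, giving 17 pairs. Their log2 differences had the same sign in 60 of 119 pair-by-comparison cases (50.4%), beside 56.1% for 1355 pairs of 966 genes in all. As a description over 12 samples on shared arrays, the correlation of their deviations from group means had a median of 0.38 and ran from -0.60 to 0.71. Over the 1355 pairs of all genes the median was 0.16, with a range of -0.87 to 0.98. Of the 17 pairs the 6 of Kcnc2 were the closest, from 0.52 to 0.71. Kcnj3 (-0.58), Kcng2 (-0.47) and Kcnj4 (-0.33) were opposed, as was 1 pair of Kcnj11 (-0.60). These are correlations within groups and not of the group differences. The differences of the paired probe sets had the same sign in 2 of 7 comparisons for Kcng2 and for Kcnj4, 4 of 7 for Kcnj3, and 5, 6 and 6 of 7 for the 3 pairs of Kcnj11. For the 6 pairs of Kcnc2 the counts were 4, 2, 7, 3, 4 and 2 of 7, despite their closeness within groups. They were 1 of 7 for Kcnip2 and for Kcnip3, 2 for Kcnab2, 4 for Kcnj6 and 5 for Kcnd2.

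**Figure D4:**
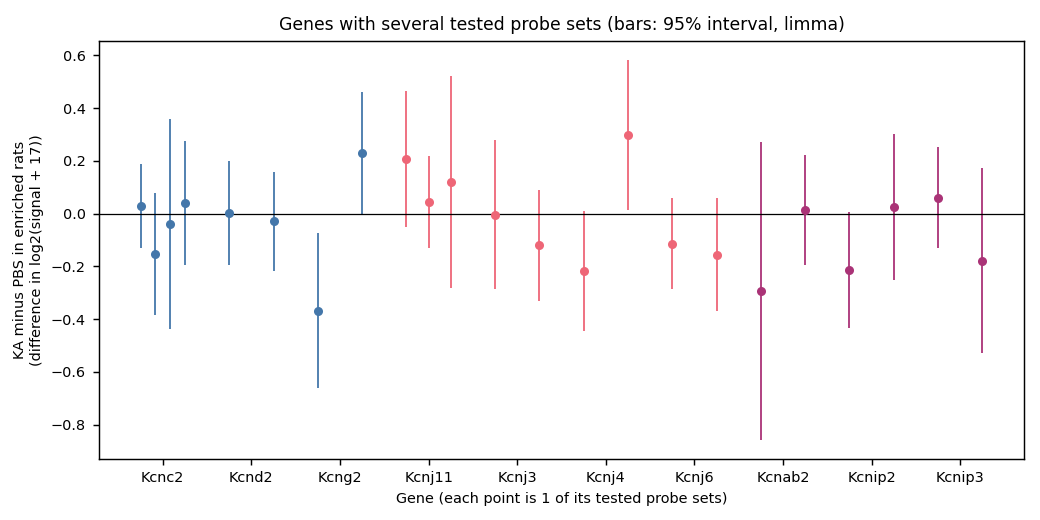
KA minus PBS in enriched rats on log2(signal + 17) for each tested probe set of the 10 genes with several, with 95% limma intervals. The paired probe sets of Kcng2 (-0.37 and 0.23) and Kcnj4 (-0.22 and 0.30) lie on opposite sides of 0.

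The 63 probe sets below the filter had median signals of 0.670 to 45.7. They include Kcnip1, Kcnj9, Kcnk3, Kcnk9, Kcnn1 and Kcnn3. In a fit of all 15866 probe sets 0 of the 107 members passed in any comparison, with lowest adjusted p (limma) of 0.624 to 0.999 by comparison, where 0 to 2 of all probe sets passed. Of the 63, 3 to 7 had an unadjusted p under 0.05 by comparison (4.76% to 11.1%), beside 4.50% to 6.81% of all 15866. The smallest p was that of Kcnj8, the ATP-sensitive pore of vascular mural cells, which is named after its values were seen. It read 34.1, 28.0 and 37.9 in PBS_isolated and 42.0, 39.2 and 38.6 in KA_isolated. It read 49.6, 46.6 and 44.0 in PBS_enriched and 42.3, 46.6 and 43.8 in KA_enriched. The lowest enriched sample (42.3) was just above the highest isolated one (42.0). Of all tested probe sets 0.305% were apart in this way, and the share below the filter was not counted. For Kcnj8 enriched minus isolated after PBS was 0.34 (SE 0.082) and did not pass (limma, adjusted p = 0.705). The 3 tested vessel markers of 6 summed to 540.4 to 607 after PBS and 566 to 577 after KA under isolation, and 536 to 618 and 530.5 to 549 under enrichment, and their part in the Kcnj8 values was not tested.

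Partners of potassium channels without the Kcn symbol were read from a list of 24 genes, of which 19 were on the array and 17 tested. They comprise auxiliary proteins of Kv channels, clustering proteins of axonal Kv1, ankyrins, the sulfonylurea receptors, calmodulin and regulators. In each of the 7 comparisons 0 of 17 passed, and 0 to 2 had an unadjusted p under 0.05 (0% to 11.8%, beside 4.21% to 7.02% of all tested probe sets). Their median log2 differences lay between -0.045 and 0.0013. Cntnap1, a protein of the paranodal junction between axon and myelin, gave -0.42 (SE 0.14) for enriched minus isolated over both treatments (limma, adjusted p = 0.832). Dpp6, an auxiliary protein of Kv4 channels, gave 0.26 (SE 0.10) for KA minus PBS in enriched rats, and Nedd4l, a ubiquitin ligase, -0.36 (SE 0.13), neither of which passed (limma, adjusted p = 0.932).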

How the data were processed

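Total RNA of 12 pooled rat hippocampus samples was read on single-colour arrays. The deposited values are probe set signals, an intensity on a linear scale (summary method not given in the sources used here), and from the values each array's 2% trimmed mean is 150.03. Groups came from the treatment text of the labels. Of 15923 probe sets 57 controls were left out. Gene names came from the array annotation (12789 probe sets with 1 symbol, 312 with several, 2822 unnamed), and 12754 matched a RefSeq table by Entrez ID, which changed 0 symbols. A probe set with several symbols was given no name, and 1 gene with the Kcn prefix is not reported here.

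Values were analysed as log2(signal + 17) in limma 3.58.1 (R 4.3.3; lmFit and eBayes, 1 mean per group, all 12 samples, 13.1 degrees of freedom), with two-sided p-values adjusted by the Benjamini-Hochberg method over 9520 probe sets in each of 7 contrasts. The steps were tested on simulated data. Class medians used the probe set of highest mean per gene. Named genes are, in each contrast, the 3 higher and 3 lower probe sets of smallest p, in each class the 3 genes of smallest F test p, genes with several tested probe sets, groups without overlap, and a list with a known part in excitability. The members, lists and rule were chosen with earlier results of these data known. Same-numbered samples of different groups correlated little in their deviations (mean r 0.050 over 18 pairs, from -0.072 to 0.20), so replicate numbers were not used as pairs. Alternatives varied the pseudocount, filter, scaling, samples, weights and covariates. Arrays give no read depth, so their number limits the precision.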

Additional observations from a re-analysis of the deposited data

How the results depend on the processing

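With 3 pools a group, changes smaller than the intervals in the text could not be seen. The number of potassium channel probe sets called was 0 in all 7 contrasts under all 158 alternative values (limma, lowest adjusted p 0.376), the fit with the replicate number as a replicate block (0 called) included, where the numbers share no known origin. The 42 named differences kept their direction and stayed short of the threshold in all 926 alternative values (limma, lowest adjusted p 0.379). They were picked by smallest p in these same data, which favours a kept direction, so no conclusion is drawn from it. Over every member and contrast, equal array medians turned the sign of 18 of 308 differences, and leaving out KA_enriched replicate 3 that of 48. Leaving out both enriched samples of high microglial signal, PBS_enriched replicate 2 and KA_enriched replicate 3, turned 59. Equal array medians moved the median of all probe sets by at most 0.020. The 35 class medians had 818 alternative values, of which 773 moved by less than the spread between replicates and 45 by more. Many medians are themselves smaller than that spread, so a value among the 773 can have changed sign. No conclusion on stability is drawn from the 773. The cause of the larger moves was not tested beyond the change of genes that a filter makes. With no filter, the median was 0.021 for calcium-activated genes (KA in isolated rats), -0.063 for auxiliary genes (KA in enriched rats), 0.028 for Kir genes (enriched minus isolated after PBS), and -0.025 and -0.059 for Kir and auxiliary genes in the interaction. With the stricter filter of 40%, it was -0.11 for Kir genes (KA in enriched rats), 0.0037 for Kv genes (KA over both housings), -0.0036 for Kir genes (enriched minus isolated after PBS), 0.10 for Kv genes (enriched minus isolated after KA), and 0.12 and -0.013 for Kv and Kir genes in the interaction. With all tested probe sets it was -0.11 and -0.058 for auxiliary genes (KA in enriched rats and over both housings), and 0.23 and 0.0015 for Kir and auxiliary genes in the interaction. Without both enriched samples of high microglial signal it was 0.099 for Kir genes (KA in enriched rats), 0.13 for Kv genes (enriched minus isolated after KA) and 0.11 for Kv genes in the interaction. For Kv genes after KA, enriched minus isolated was 0.11 with array weights and 0.11 with the beta-actin ratio as a covariate. Leaving out 1 sample at a time, Kv medians ran from -0.091 to -0.030 (KA in isolated rats), -0.021 to 0.061 (KA in enriched rats), -0.058 to -0.0027 (KA over both housings), -0.028 to 0.027 (housing after PBS), 0.031 to 0.14 (housing after KA) and 0.034 to 0.15 (interaction). Kir medians ran from -0.099 to 0.0038 (KA in isolated rats), -0.14 to 0.018 (housing after PBS) and 0.023 to 0.16 (interaction), and auxiliary medians from -0.088 to 0.0034 (KA in isolated rats) and -0.031 to 0.049 (housing after PBS).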
